A study of Isodiametra pulchra with 2 samples.

Results

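The cells described here are called barcodes of *Isodiametra pulchra* hatchlings that carried RNA of TRINITY_DN22494_c0_g1 or TRINITY_DN23946_c0_g1, a pair of assembled transcript features here called DN22494 and DN23946. Called barcodes were those with at least 166 UMIs (unique molecular identifiers, 1 per captured RNA molecule) in library 1 and at least 1027 UMIs in library 2. A called barcode counted as a marker cell when the summed UMIs of both features reached 1 in library 1 or 2 in library 2. This gave 66 marker cells of 4483 called barcodes in library 1 and 54 of 3275 in library 2, in all 120 of 7758. Both libraries held wild-type hatchlings raised on diatoms at 20°C and dissociated with collagenase, and both belong to 1 group, so the comparisons are between marker cells and other called barcodes of the same library. How many animals were pooled is not given in the sources used here. With library as a block, p-values rest on how far the difference between classes varied between 2 libraries, with the spread largely shared over features. A small p-value for 1 feature therefore does not show that both libraries gave a similar fold. The variation between libraries may be technical.

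*I. pulchra* is an acoel, a small soft-bodied marine worm of the Xenacoelomorpha, a lineage that is placed either at the base of the bilaterian animals or close to the deuterostomes. Acoels have a mouth but no through-gut and digest food in a central tissue without a lumen. They also have a nerve net with an anterior brain, ciliated epidermis, muscle, gland cells and stem cells called neoblasts, which are known in acoels as the source of new differentiated cells. The deposited files do not pair the assembly identifiers with gene names, so neither marker nor any other feature can be given a function, and the cells are called by their markers and not by a cell type.

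The libraries differed in depth, with 6581711 UMIs in library 1 and 34060611 in library 2, and the lists of possible barcodes held 737280 and 6794880 entries, so the depth and any difference in kit go with the library. No barcode was called in both libraries (0 shared). Marker cells had a median of 331 UMIs in library 1 and 1378.5 in library 2, against 287 and 1522 in the other called barcodes, so they were on the deeper side in library 1 and on the shallower side in library 2. With every barcode thinned to 166 UMIs, which left out none, the median number of features found in marker cells was 153 (library 1) and 137 (library 2). In the other called barcodes it was 152 and 124. Without thinning the medians were 266 against 243 features in library 1 and 785.5 against 817 in library 2, so the order in library 2 turned with the depth.

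Marker RNA was scarce in each cell. In library 1, 51 of the 66 marker cells had 1 marker UMI, 11 had 2 and 4 had 3 or more, up to 5. In library 2, 39 of the 54 had 2 marker UMIs and 15 had 3 or more, up to 9. Just outside the rule lay the 121 called barcodes of library 2 with 1 marker UMI and the 4417 of library 1 with none. Marker cells made up 1.47% of the called barcodes of library 1 (exact 95% binomial interval 1.14 to 1.87%) and 1.65% of library 2 (1.24 to 2.15%). These intervals, like those that follow, cover counting error only. The closeness of these shares rests on the different minima, since 5.34% of called barcodes of library 2 had at least 1 marker UMI. After thinning to 166 UMIs, 0.884% and 0.811% of called barcodes would be expected to keep at least 1 marker UMI.

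**Figure D1:**
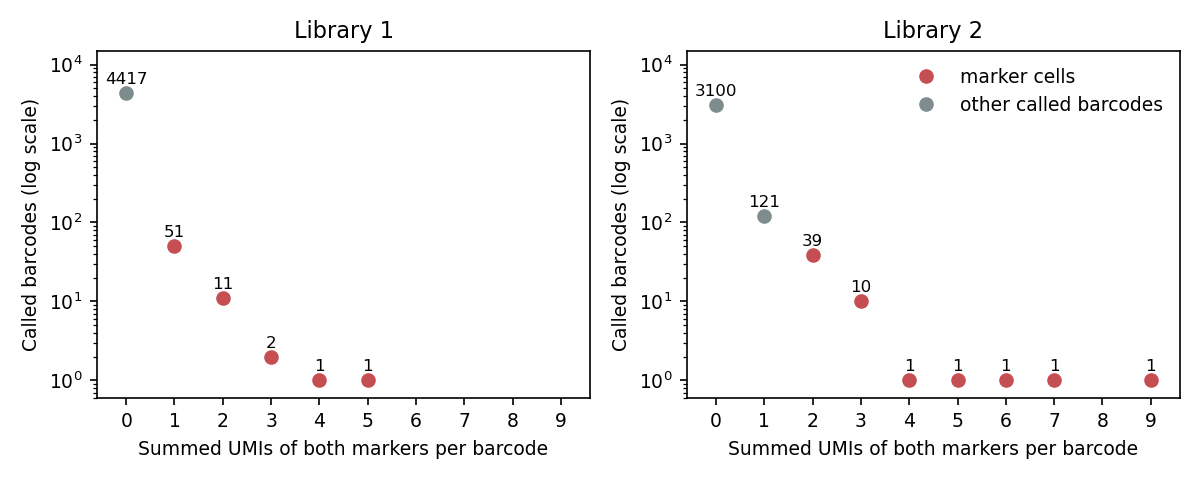
Called barcodes (y axis, log scale, with the count beside each point) by their summed UMIs of both markers (x axis) in each library. Red points are marker cells and grey points the other called barcodes; most marker cells lie at the lowest count the rule admits, 51 of 66 in library 1 and 39 of 54 in library 2.

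DN22494 was the more abundant marker. It had a UMI in 52 of 66 marker cells of library 1 and in 52 of 54 of library 2, and DN23946 in 20 and 23. In library 1, 46 marker cells held DN22494 only, 14 DN23946 only and 6 both. In library 2 these were 31, 2 and 21. The rule fixes the level of the markers in these cells, which was 2357 CPM (UMIs of a feature per 1000000 UMIs) for DN22494 and 786 CPM for DN23946 in library 1, and 1074 and 259 CPM in library 2.

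The ratio of the markers to each other was similar in called and uncalled barcodes. All called barcodes held 66 UMIs of DN22494 and 22 of DN23946 in library 1 and 195 and 65 in library 2, a ratio of 3.00 in each. DN22494 thus made up 75% of the marker UMIs (64.6 to 83.6% in library 1 and 69.3 to 80.1% in library 2). Below the calling minimum the ratio was 2.93 in library 1 and 3.22 in library 2. Empty droplets were taken as the barcodes whose total lay within 20% of a peak in the totals (59 and 340 UMIs). The peak was sought on a log scale above 10 UMIs. The median barcode below the calling minimum held 2 UMIs in library 1 and 1 in library 2. In the empty droplets the ratio was 3.13 and 4.23. The counting intervals of these shares overlapped in each library. Marker cells of library 2 had a ratio of 4.15 (112 and 27 UMIs), where the rule asked for 2 UMIs of either marker.

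Over all called barcodes, whether or not the rule admitted them, the overlap of the markers can be described, though it comes from the same UMIs as the rule. Of the called barcodes with DN23946, 6 of 20 in library 1 also had DN22494 (30%, 11.9 to 54.3%). Of those without DN23946, 46 of 4463 did (1.03%, 0.756 to 1.37%). In library 2 the shares were 34.4% (21 of 61, 22.7 to 47.7%) and 3.55% (114 of 3214, 2.93 to 4.25%). Barcodes of 1 library are not replicates, and no test was made of these shares.

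Another feature, TRINITY_DN23946_c0_g2, shares the assembly component of DN23946, and reads of such features can be split between them by the counting. It had 1 UMI in the marker cells of library 1 (35.8 CPM) against 23 UMIs in the other called barcodes (13.6 CPM). In library 2 it had 7 UMIs (67.2 CPM) against 90 (13.0 CPM). The log2 fold change of TRINITY_DN23946_c0_g2 was 1.78 (SE 0.93, edgeR quasi-likelihood test with library as a block, adjusted p = 0.60), so a difference was not detectable at this depth. No other feature carried the component number of DN22494.

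Marker RNA was also present in the empty droplets, and the libraries differed in how its level there compared with that of all called barcodes. In library 1 the empty droplets held 65.0 CPM of both markers (exact Poisson 95% interval 55.4 to 75.9) and all called barcodes 51.3 CPM (41.1 to 63.2), so the called barcodes were not above the empty droplets. In library 2 the empty droplets held 23.1 CPM (20.4 to 26.0) and the called barcodes 37.1 CPM (32.7 to 41.9), so the called barcodes were above the empty droplets. A marker UMI was seen in 0.375% of empty droplets of library 1 at a median of 59 UMIs, and in 0.737% of those of library 2 at a median of 332 UMIs. A single marker UMI is therefore not told from free RNA by its count, and the part of free RNA among the 51 single-UMI marker cells of library 1 was not tested. The features below, which the rule did not use, describe what marker cells share besides the markers. They do not sort single marker cells from barcodes with free RNA.

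Marker cells resembled each other in the rest of their RNA. When called barcodes were joined to their 15 nearest neighbours over 30 principal components, with both markers left out, 9.49% of the neighbours of a marker cell of library 1 were marker cells on average, and 24.4% in library 2. Among all called barcodes 1.55% were marker cells. The neighbours of the other called barcodes held 1.14% marker cells in library 1 and 1.43% in library 2. At least 1 marker cell was among the neighbours of 33 of 66 marker cells in library 1 and of 47 of 54 in library 2.

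Leiden clustering of the same graph gave 33 clusters, numbered by size, and cluster 5 held more marker cells than any other in each library. Cluster 5 was not made with the markers. It held 32 of 66 marker cells of library 1 (48.5%, 36.0 to 61.1%) and 45 of 54 of library 2 (83.3%, 70.7 to 92.1%), while it took 4.46% and 7.15% of the called barcodes (200 and 234). The other 34 marker cells of library 1 were spread over 14 clusters, with 14 of them in cluster 1 and 3 in the small cluster 28 (3 of 17 barcodes). The other 9 of library 2 were spread over 7 clusters. Those 9 held 23 UMIs of DN22494 and 1 of DN23946, against 89 and 26 in the 45 marker cells in cluster 5. Clustered alone, library 1 had a cluster with 29 of its 66 marker cells and library 2 one with 42 of 54.

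Since cluster 5 was singled out for its marker cells, the marker levels in it are a description of that choice. DN22494 reached 689 CPM in cluster 5 of library 1 against 15.7 CPM elsewhere, and 348 against 9.51 CPM in library 2. DN23946 reached 189 against 6.63 CPM in library 1 and 113 against 3.32 CPM in library 2. Outside cluster 5 the level of both markers together was 22.3 CPM in library 1 and 12.8 CPM in library 2, below that of the empty droplets of the same library. Within cluster 5, 16% of barcodes had a marker UMI in library 1 (11.2 to 21.8%, median 252 UMIs per barcode) and 44.9% in library 2 (38.4 to 51.5%, median 1341 UMIs). Elsewhere the shares were 0.794% (0.550 to 1.11%, median 290 UMIs) and 2.30% (1.80 to 2.90%, median 1538 UMIs). The part of free RNA in these was not tested, and in library 1 cluster 28 stood at 261 CPM. Most barcodes of cluster 5 had no marker UMI at these depths in either library.

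The share of barcodes in cluster 5 was higher with marker UMIs than without. In library 1 it was 3.80% (3.26 to 4.41%) without a marker UMI, 39.2% (25.8 to 53.9%) with 1, 8 of 11 with 2, and 4 of 4 with 3 or more. In library 2 it was 4.16% (3.49 to 4.92%) without one, 49.6% (40.4 to 58.8%) with 1, 82.1% (66.5 to 92.5%) with 2, and 13 of 15 with 3 or more. The 121 barcodes of library 2 just under the rule thus lay between those without a marker UMI and those the rule admitted. Cluster 5 was singled out for its marker cells, so a higher share among them than without a marker UMI is part of that choice. Between 2 marker UMIs and 3 or more the intervals overlapped in library 2 (66.5 to 92.5% and 59.5 to 98.3%).

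**Figure D2:**
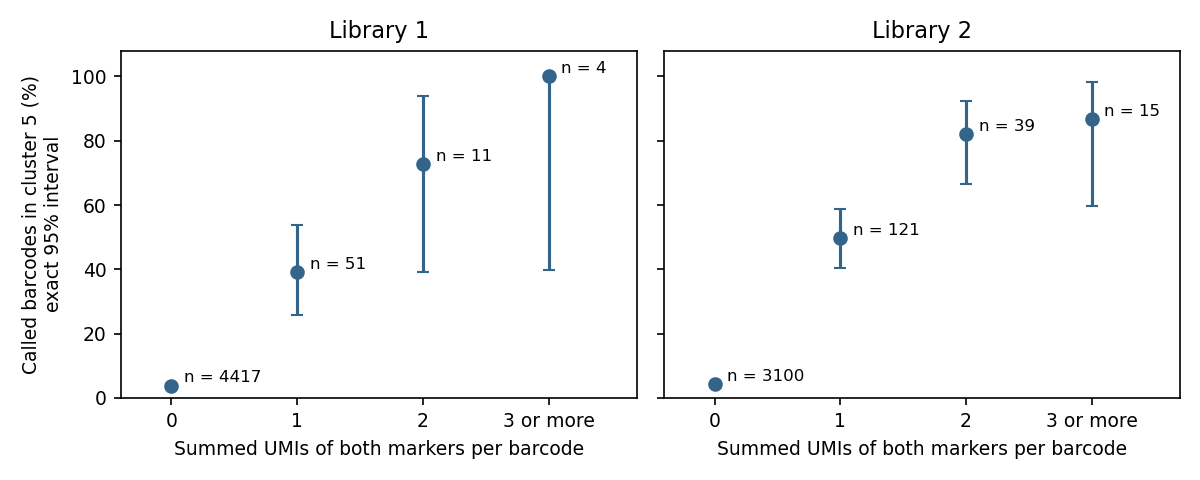
Percent of called barcodes that lie in cluster 5 (y axis) by their summed marker UMIs (x axis) in each library; points are shares, bars exact 95% binomial intervals and n the number of barcodes. In both libraries the share is lowest without a marker UMI (3.80% and 4.16%) and is 72.7% or more from 2 marker UMIs on. Cluster 5 was singled out for its marker cells, so the plot describes that choice.

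Features that accompany the markers in 1 library were followed into the other, which had no part in choosing them. The 50 features with the highest fold in marker cells of library 2 were chosen among 2182 with at least 10 UMIs there. In library 1, 45 of the 50 were higher in marker cells than in the other called barcodes and 43 at least 2-fold, with a median fold of 7.02. Over all 11872 features with at least 10 UMIs in library 1, 36.5% were higher, 14.5% at least 2-fold, and the median was 0.648. The 50 chosen in library 1, among 364 with at least 10 UMIs in its marker cells, had lower folds in the other library. In library 2, 30 of them were higher and 23 at least 2-fold, with a median fold of 1.77, against 48.5%, 20.1% and 0.953 over 17356 features. The lists were chosen from values of these data and are given as a description.

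Summed over the 50 features chosen in library 2, the accompanying RNA took 0.848% of the UMIs of the median marker cell of library 1. In the other called barcodes the median was 0% and the 95th percentile 1.00%, which 30 of 66 marker cells exceeded. In library 1 the level depended on the number of marker UMIs, with a median of 0.366% at 1 marker UMI and 3.94% in the 15 marker cells with 2 or more. In library 2, the 50 features chosen in library 1 took 1.56% in the median marker cell, 0.615% at 1 marker UMI and 0.249% without one. Among the marker cells of library 2 the median was 1.56% at 2 marker UMIs and 1.61% at 3 or more, so it hardly rose. The 95th percentile of the other called barcodes was 2.16% there, and 19 of 54 marker cells exceeded it. With the 100 highest features in place of 50, that percentile was 8.30% and 3 of 54 exceeded it (5.56%), near the 5% of the other called barcodes, while in library 1 35 of 66 still exceeded theirs. Summed over all barcodes of a class, these features took 1.5% of the UMIs of marker cells, 0.199% in the other called barcodes and 0.313% in the empty droplets of library 1. In library 2 they took 1.97%, 0.665% and 0.553%. By markers, the 6 cells of library 1 with both markers had a median of 3.72%, those with DN22494 only 0.848% and those with DN23946 only 0.539%. In library 2 the 21 cells with both had 1.67%, the 31 with DN22494 only 1.19% and the 2 with DN23946 only 3.02%.

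**Figure D3:**
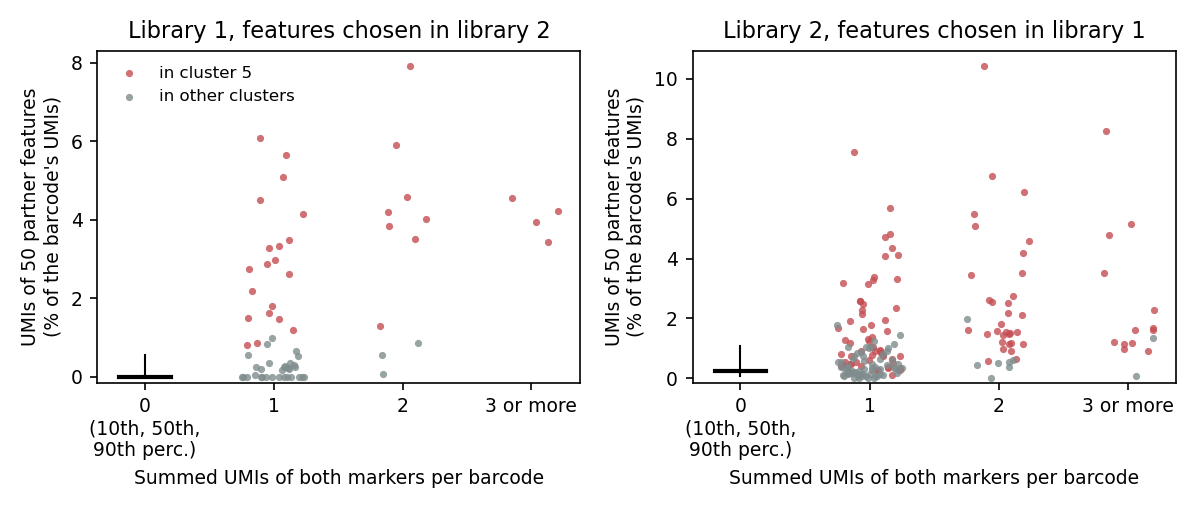
UMIs of the 50 accompanying features as a percent of all UMIs of a barcode (y axis), by summed marker UMIs (x axis), in each library with the features chosen in the other. Each point is 1 called barcode with a marker UMI, red in cluster 5 and grey elsewhere; the black line marks the 10th to 90th percentile and the bar the median of barcodes without one. All marker cells above the 95th percentile of the other called barcodes, 30 in library 1 and 19 in library 2, are in cluster 5.

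The accompanying RNA was higher in marker cells inside cluster 5 than outside it. In library 1, 30 of the 32 marker cells in cluster 5 lay above the 95th percentile of the other called barcodes and 0 of the 34 elsewhere did. The medians were 3.46% and 0.190%. With the 20 highest features 21 of the 32 and 3 of the 34 lay above theirs, and with the 100 highest 31 and 4. In library 2, 19 of 45 in cluster 5 did and 0 of 9 elsewhere, with medians of 1.62% and 0.515%. Cluster 5 was made with features that may include these 50, so the split is a description. Barcodes of cluster 5 that were not marker cells had medians of 1.91% in library 1 and 1.04% in library 2, below the marker cells of the cluster and above the 0% and 0.240% of other barcodes elsewhere. Of these barcodes of cluster 5, 143 of 168 in library 1 (85.1%) and 42 of 189 in library 2 (22.2%) also lay above the 95th percentile.

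Against all other called barcodes, 190 of 10437 features tested differed in marker cells (1.82%), of which 120 were higher (1.15%) and 70 lower (0.671%). The test was edgeR's quasi-likelihood test on UMIs summed per library and class, with library as a block and a threshold of 0.05 on Benjamini-Hochberg adjusted p. Without the block it called 0 features, with 380 at an unadjusted p under 0.05, and DESeq2 called 63 higher and 8 lower. Membership at 2 and 4 marker UMIs turned the balance to 5 higher and 22 lower, thinning to 166 UMIs left 1 and 1, and the marker cells outside cluster 5 alone gave 0 higher and 7 lower. Of the 120, 113 were higher in each library taken alone and 89 at least 4-fold in each. The other 7 had 0 UMIs in the marker cells of library 1, so their call rests on library 2, and in all 95 of the 120 had under 10 UMIs there. All 70 lower features were lower in each library, and 33 of them had 0 UMIs in the marker cells of library 1. Together the 120 took 3.31% of the UMIs of marker cells in library 1 and 4.87% in library 2, against 0.497% and 0.413% in the other called barcodes. Without TMM normalisation 196 were higher and 52 lower, 79.0% of the calls being higher against 63.2% with it. The median log2 fold change of all tested features was -0.25 with TMM and 0.15 without it. By size alone, 128 of 11730 features with at least 10 UMIs in each library (1.09%) were at least 4-fold higher in marker cells in each library, with counts under 3 UMIs in the comparison set to 3. The minimum of 10 UMIs was over all called barcodes and none was set for marker cells. In library 1 a feature could therefore pass with 1 UMI in the marker cells.

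**Figure D4:**
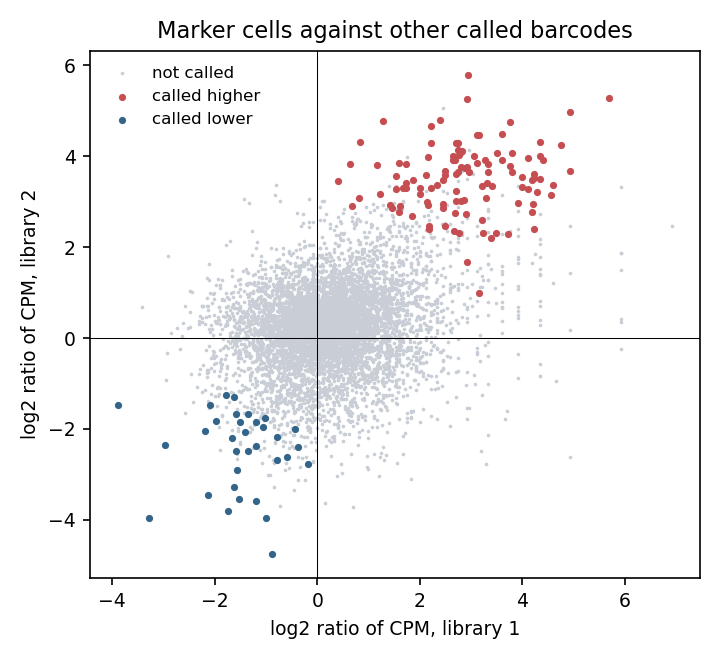
log2 ratio of CPM in marker cells to CPM in other called barcodes in library 1 (x axis) and library 2 (y axis), for the 6611 of 10437 tested features with a UMI in all 4 sums. Red points are the 113 called higher and blue points the 33 called lower that could be drawn. The drawn calls keep their sign in each library. Calls were made from both libraries together, and 7 higher calls with 0 UMIs in marker cells of library 1 are not drawn. The agreement in sign is thus partly set by this choice.

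The higher features with the largest fold in both libraries were scarce ones. TRINITY_DN24320_c0_g2 had 6 UMIs in 4 of 66 marker cells of library 1 (215 CPM) against 7 UMIs in 4417 other barcodes (4.15 CPM), and 7 UMIs in 5 of 54 marker cells of library 2 (67.2 CPM) against 12 UMIs (1.74 CPM). Its levels were 51.8-fold and 38.7-fold higher, and the log2 fold change was 4.99 (SE 0.96, edgeR, adjusted p = 4.78e-05). TRINITY_DN32854_c1_g2 rested mostly on library 2, with 10 UMIs in 8 marker cells (96.0 CPM) against 21 UMIs in the others (3.04 CPM). In library 1 it had 1 UMI against 2 UMIs. Its log2 fold change was 4.58 (SE 1.02, edgeR, adjusted p = 0.00094). Without library as a block the edgeR adjusted p was 0.79 for TRINITY_DN24320_c0_g2 and 0.887 for TRINITY_DN32854_c1_g2, with log2 fold changes of 5.02 and 4.59. Both features were thus found in few marker cells, and in a smaller share of the other barcodes.

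The 2 lower features named here were abundant in the other called barcodes. They ranked first by the smaller drop of the libraries, with marker-cell counts under 3 UMIs set to 3. Scarce features could not rank high by that rule, so the abundance follows from it. Among all 70 lower features the median log2 fold change was -2.91 and the lowest -11.5. TRINITY_DN28451_c0_g3 stood at 215 CPM in marker cells of library 1 and 1692 CPM in the other barcodes, and at 470 and 2413 CPM in library 2. The log2 fold change was -3.03 (SE 0.54, edgeR, adjusted p = 8.42e-06). It was found in 7.58% of marker cells and 10.3% of the others in library 1, and in 37.0% and 24.7% in library 2, where the order of the shares goes against that of the CPM. TRINITY_DN20392_c0_g1 stood at 179 against 785 CPM in library 1 and 144 against 1573 CPM in library 2, a log2 fold change of -3.36 (SE 0.57, edgeR, adjusted p = 1.9e-06). One barcode of library 1 held 693 of its 1326 UMIs in the other barcodes, and one of library 2 held 2516 of 10855. Without those barcodes the level of TRINITY_DN20392_c0_g1 in the others was 375 and 1209 CPM. The shares of barcodes with a UMI of TRINITY_DN20392_c0_g1 were 7.58% and 9.06% in library 1 and 25.9% and 26.2% in library 2. Both calls were lost without the block (edgeR adjusted p = 0.9997 for each) and after thinning to 166 UMIs (edgeR adjusted p = 0.152 and 0.182), and their log2 fold changes stayed negative in all settings tried. For both lower features the CPM thus differed by more than the share of barcodes with a UMI.

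Whether marker cells differ from the cells they resemble was addressed within cluster 5, with 32 marker cells against 168 other barcodes in library 1 and 45 against 189 in library 2. Of the 189, 60 had 1 marker UMI, while the 168 of library 1 had none, so the compared barcodes were not of the same kind in each library. Of 1373 features tested, 13 differed (0.947%), 8 being higher (0.583%) and 5 lower (0.364%), by edgeR with library as a block. DESeq2 called 0, and so did edgeR without the block, each with 3 at an unadjusted p under 0.05. The call with the smallest p was TRINITY_DN26240_c0_g2. It had 17 UMIs in 7 of 32 marker cells of library 1 (1543 CPM) against 22 UMIs in 11 of 168 others (468 CPM). In library 2 it had 89 UMIs in 17 of 45 marker cells (1139 CPM) against 8 UMIs in 5 of 189 others (26.6 CPM). The fold was 3.30 in library 1 and 42.9 in library 2, with a log2 fold change of 3.43 (SE 0.41, edgeR, adjusted p = 1.51e-13). The folds of the libraries were far apart, which the SE with the block did not reflect. Its adjusted p was 0.999 with DESeq2 (SE 1.08) and without the block in edgeR (SE 1.25). No single barcode held most of its UMIs in library 2, where the richest marker cell had 14. Against all other called barcodes of both libraries TRINITY_DN26240_c0_g2 was higher too, at 681 against 88.8 CPM in library 1 and 883 against 15.9 CPM in library 2 (log2 fold change 4.03, SE 0.53, edgeR adjusted p = 1.97e-10).

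The other features named within cluster 5 rested on few UMIs in the marker cells, at most 12 per library. TRINITY_DN31677_c1_g2 was 3.91-fold and 3.30-fold higher in the marker cells of the cluster, with 11 and 12 UMIs in them (log2 fold change 1.67, SE 0.44, edgeR adjusted p = 0.023). TRINITY_DN26791_c0_g4 stood at 182 against 1000 CPM in library 1 and 38.4 against 133 CPM in library 2 (log2 fold change -2.22, SE 0.58, edgeR adjusted p = 0.023). TRINITY_DN24304_c0_g1 had 0 UMIs in the marker cells of library 1 and 24 in the other barcodes of the cluster, and 3 against 58 UMIs in library 2 (edgeR adjusted p = 0.0041). Marker cells of the cluster were deeper than the others in library 1, with medians of 308.5 and 241.5 UMIs, and not in library 2, with 1307 and 1348.

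Cells with DN23946 and cells with DN22494 only were compared as the classes of marker cells large enough in each library, since DN23946 alone marked 14 cells in library 1 and 2 in library 2. With 20 against 46 cells and 23 against 31, edgeR with library as a block called 0 of 394 features higher and 1 lower (0.254%) in cells with DN23946. At an unadjusted p under 0.05 there were 18. DESeq2 called 0 higher and 1 lower, and edgeR without the block 0, with 2 at an unadjusted p under 0.05. The lower feature was TRINITY_DN24715_c0_g1, with 18 UMIs in cells with DN23946 against 638 in cells with DN22494 only in library 1, and 10 against 139 in library 2 (log2 fold change -3.61, SE 0.54, edgeR adjusted p = 2.7e-08). A single cell held 589 of the 638 UMIs and another 83 of the 139, and without those cells 49 and 56 UMIs were left. In library 1 the level was then 2576 CPM against 2575 CPM in cells with DN23946, about the same, and in library 2 it was 909 against 241 CPM. TRINITY_DN24715_c0_g1 had a UMI in 11 of 20 and 29 of 46 cells in library 1, and in 9 of 23 and 14 of 31 in library 2, so the classes overlapped cell by cell. With this number of UMIs, a difference between the classes in other features was not detectable, which does not show that they are alike.

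Marker cells were set beside other sets of barcodes picked by marker features at the same minimum of UMIs. With cells that carried TRINITY_DN20394_c0_g1 or TRINITY_DN29970_c0_g1 (64 and 83 cells) they shared 1 cell in library 1 and 0 in library 2. The 1 cell is 1.52% of the marker cells of library 1, and the set held 1.43% and 2.58% of the other called barcodes of the libraries. With cells that carried TRINITY_DN27834_c0_g1 (109 and 67) they shared 1 and 0, and that set held 2.45% and 2.08% of the other called barcodes. With cells that carried TRINITY_DN31468_c1_g5 or TRINITY_DN24391_c1_g2 (53 and 331) they shared 0 in library 1 and 4 in library 2, the latter 7.41% of its marker cells, and the set held 1.2% and 10.2% of the other called barcodes. No difference of these shares was tested.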

How the data were processed

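The deposited matrix holds raw UMI counts per feature and barcode of both libraries, which the authors made with Cell Ranger 3.0.2, per the submitters' processing notes. It lists every barcode of the kit lists, with no cell filter. The reference, the aligner settings and any depth equalisation on pooling are not given in the sources used here. Barcode suffixes were matched to the run numbers in the titles. No other sample's columns were present (0). The members, the lists and the tests were chosen with earlier results of these data known.

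UMIs were summed per library and class. Both markers were left out of the sums, the filter and the tests. Tests used edgeR 4.0.16 (TMM, default low-count filter, library as a block because both classes come from the same library), with DESeq2 1.42.0 as an alternative. On simulated sums of 10357 features, edgeR recovered 15% of features changed 4-fold and 73% of those changed 8-fold in marker cells, with 2 false calls. So in that setting 4-fold changes were mostly missed. The simulation gave all features the same dispersion and did not copy the clumping of UMIs in single barcodes seen for some features. Whether its recovery and false calls hold for the real sums was not tested. Folds and drops per library set counts under 3 UMIs in the denominator to 3.

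For neighbours and clusters, counts were scaled to 10000 per barcode and log-transformed. Of features seen in 3 or more called barcodes per library, the 2000 most variable were scaled within each library and limited to 10 SD (scanpy 1.11.5, leidenalg 0.10.2, resolution 1). Doublet scores came from Scrublet. Its automatic threshold marked 0 barcodes of library 1 and 1 of library 2. Whether that threshold was well placed was not checked, and all called barcodes were kept. Removing the highest scores at 0.8% per 1000 barcodes was an alternative. It took 161 and 86 barcodes, of which 0 and 2 were marker cells. Alternatives of normalisation, filter, depth, membership and clustering were also computed.

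Named features were the 2 higher and 2 lower called features with the largest smaller fold of the libraries in each comparison. TRINITY_DN23946_c0_g2 and the features of the other sets were named besides. The comparison within cluster 5, that of cells with DN23946, and the marker cells outside cluster 5 were added after seeing the data.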

Additional observations from a re-analysis of the deposited data

Results flagged for a closer look

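Most marker UMIs lay in barcodes that the comparisons do not use. Barcodes below the calling minimum held 76.8% of the marker UMIs of library 1 (291 of 379) and 78.9% of those of library 2 (970 of 1230). These barcodes also held 73.9% and 79.4% of all UMIs, so the marker share was about that of RNA in general. In library 2, 69 such barcodes had at least 2 marker UMIs, up to 8, at a median total of 707 UMIs. The features chosen in library 1 took 1.38% of the UMIs of the median barcode among them, against 1.56% in the marker cells, 0.249% in called barcodes without a marker UMI and 0.364% in the empty droplets of library 2. In library 1 only 6 barcodes below the minimum had at least 2 marker UMIs, at a median total of 67 UMIs, and the 90th percentile of their accompanying RNA was 0%.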

How the results depend on the processing

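With 2 libraries, leaving out either leaves no residual degrees of freedom, so the tests could not be repeated without one. The number of features at least 4-fold higher, with 1 library left out, was 506 to 508 against 128 with both. At 8-fold it was 31. Counts of features called against other called barcodes (120 higher and 70 lower) depended on the fit. Without library as a block, in the fit that does not use the pairing of both classes within a library, 0 were higher and 0 lower, with 380 at an unadjusted p under 0.05. DESeq2 called 63 and 8, library sizes alone 196 higher, and no filter on low counts 71 higher. Membership at 2 and 4 marker UMIs left 15 and 5 marker cells and called 5 and 22. Thinning to 166 UMIs left 10905 and 8947 UMIs in marker cells and called 1 and 1. Marker cells outside cluster 5 gave 0 higher and 7 lower, with 551 at an unadjusted p under 0.05. Removing high doublet scores (129 and 88) and limiting the other barcodes to the depth of the marker cells (124 and 65) kept these counts within 1.5 times. Within cluster 5, DESeq2 and the fit with no block each called 0 higher and 0 lower, with 3 at an unadjusted p under 0.05 in each. For cells with DN23946, the fit without the block called 0 lower and no filter 2 lower. All named features kept their direction in every setting where they were tested. TRINITY_DN24715_c0_g1 was not called without the block (adjusted p = 0.9998) or without the filter (0.366), and the lower features TRINITY_DN28451_c0_g3 and TRINITY_DN20392_c0_g1 not in marker cells outside cluster 5 (0.19 and 0.0794), all by edgeR. The share of marker cells moved to 1.24% in library 2 at the double calling minimum, to 0.335% and 0.153% at 2 and 4 marker UMIs, to 5.34% in library 2 at 1 marker UMI, and to 0.884% and 0.811% after thinning. Marker cells minus other barcodes in median features per cell was 1 and 13 when thinned, and 23 and -31.5 when not, a reversal in library 2. The causes were not tested, apart from fewer cells or UMIs where stated. The summed level of the accompanying features in library 2 was 2.96-fold with 50 features and 1.32-fold with 100. Over the main setting and the alternatives tried, neighbour shares were 8.48 to 9.49% in library 1 and 22.0 to 24.9% in library 2. The shares of marker cells in the leading cluster were 43.9 to 50% in library 1 and 77.8 to 83.3% in library 2.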
